A study of Mus musculus with 6 samples.

Results

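The genes of MHC class I antigen presentation and the immunoproteasome were taken from RNA-seq of differentiated mouse brown adipocytes by their symbols. The 10 genes were H2-K1, H2-D1, B2m, Tap1, Tap2, Tapbp, Psmb8, Psmb9, Psmb10 and Nlrc5. All 10 were among the 13283 genes of the table, and all 10 passed the filter on low values (10 or more in 3 or more libraries), which left 12507 genes tested. The study asked what the loss of MICT1, a microprotein of brown adipocytes, does to gene expression under forskolin, a direct activator of adenylyl cyclase.

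Both groups came from an immortalized mouse BAT (brown adipose tissue) cell line that stably expressed Cas9. The 3 MICT1 KO libraries came from knockout pools made with sgRNAs against the gene, and the 3 control libraries, labelled WT in genotype, from cells given a scrambled sgRNA (Scr). On day 6 of differentiation all 6 cultures received forskolin (10 µM, 6 h), so every library is of stimulated cells. The labels do not say from which pool a KO library came. The methods call replicates biological, without saying for these libraries what was repeated, so the p-values measure the spread between these libraries. A pool mixes many edited alleles, and the line is a single one. Its MHC haplotype is not given in the sources used here.

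Class I molecules are carried by nearly all nucleated cells and display peptides from inside the cell to CD8+ T cells. Each is a polymorphic heavy chain (H2-K1 and H2-D1 in the mouse) held by the light chain beta-2-microglobulin (B2m). Peptides are cut by the proteasome, in which interferon can replace the catalytic subunits Psmb5, Psmb6 and Psmb7 by Psmb8, Psmb9 and Psmb10 to form the immunoproteasome. They are then pumped into the endoplasmic reticulum by the transporter Tap1-Tap2 and loaded with the help of tapasin (Tapbp). Nlrc5 is the coactivator that drives transcription of class I genes.

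Of these genes, 6 of 10 were higher in MICT1 KO than in Scr cells, 1 (Tap2) was lower and 3 did not pass an adjusted p of 0.05. The heavy chains rose 1.86-fold (H2-K1) and 1.82-fold (H2-D1), the ratio of group means, while their light chain B2m rose 1.26-fold. Tap1 rose 2.81-fold and was the single gene of the 10 with a change of at least 2-fold on the log2 scale. Its partner Tap2 was 1.21-fold lower. Among all genes tested, 28.5% were called higher, 28.3% lower and 56.9% in either direction, so calls were common in this comparison. The median log2 fold change of the 10 genes was 0.34, beside -0.0053 over all genes tested.

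**Figure D1:**
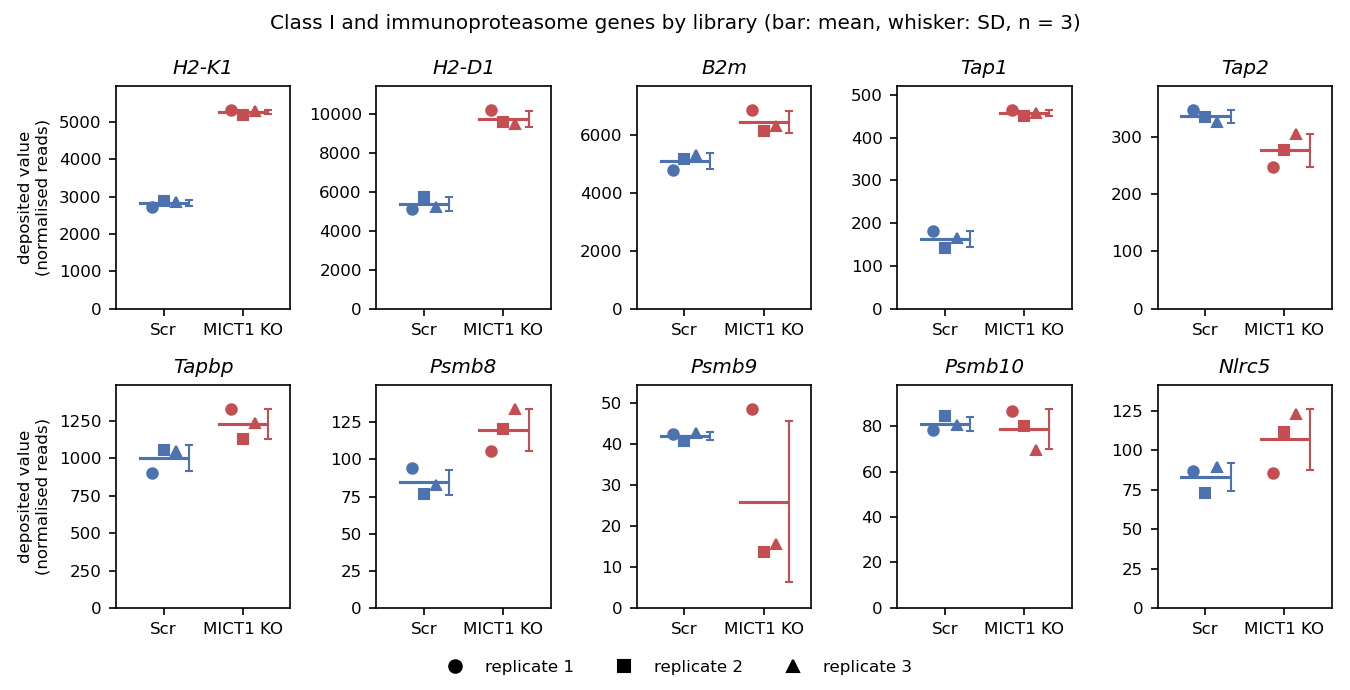
Values of the 10 genes in each library, in normalised reads on a linear axis from 0, with Scr in blue and MICT1 KO in red (bar, mean; whisker, SD, n = 3). The groups are apart for 7 genes, and for Psmb9 KO 1 lies at 48.6 while KO 2 and KO 3 lie at 13.7 and 15.5.

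Of the 10 genes, 7 lie on chromosome 17 (GRCm38, GENCODE annotation). H2-K1 (ENSMUSG00000061232) is at chr17:33996017-34000347 on the minus strand and H2-D1 (ENSMUSG00000073411) at chr17:35262730-35267499 on the plus strand. Between them lies a compact run in which Psmb9 (chr17:34181987-34187764, minus strand), Tap1 (chr17:34187553-34197225), Psmb8 (chr17:34197721-34201454) and Tap2 (chr17:34203527-34216321, all plus strand) follow each other. Tapbp (chr17:33915899-33929292, plus strand) opens the interval. B2m is at chr2:122147686-122153083 on the plus strand, and Psmb10 (chr8:105935735-105938444, minus strand) and Nlrc5 (chr8:94434356-94527272, plus strand) are on chromosome 8. Over the interval from Tapbp to H2-D1, 55 other genes were tested, of which 8 were higher and 14 lower, with a median log2 fold change of -0.08. Of the 7 class I and immunoproteasome genes there, 5 were higher and 1 lower. Among all genes tested, 28.5% were higher and 28.3% lower.

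The stretches of 30 bases upstream of a RefSeq start of genes that rose are shown because the class I heavy chains share one there. They were read from RefSeq promoters (250 bases before to 50 after the start, GRCm38.p6), and 8 of the 10 genes had an entry. H2-K1 had 2 entries, of which the first listed was used. Its RefSeq span reaches 34000619, so its stretch lies inside that span. By the GENCODE coordinates above, the stretches of H2-D1 and Psmb8 lie inside the genes, and that of Tap1 lies inside the neighbouring Psmb9. The first 3 are at chr17:34000429-34000458 (H2-K1, minus strand, from -111 of the start), chr17:35262923-35262952 (H2-D1, plus strand, from -171) and chr17:35379443-35379472 (H2-Q4, a class Ib heavy chain, plus strand, from -174). The others are at chr2:122147548-122147577 (B2m, plus strand, from -139), chr17:34187459-34187488 (Tap1, plus strand, from -97) and chr17:34198088-34198117 (Psmb8, plus strand, from -107). Capitals mark letters of a searched motif.
H2-K1: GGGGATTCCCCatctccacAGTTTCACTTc
H2-D1: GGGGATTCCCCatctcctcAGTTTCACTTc
H2-Q4: gGGGATTTCCCatctccccAGTTTCACTTc
B2m: GAAACTGAAAatGGGAAAGTCCCtttgtaa
Tap1: ccagagacaggTGACGACAgagggtcctgc
Psmb8: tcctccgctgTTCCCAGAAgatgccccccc

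The stretches of H2-K1 and H2-D1 were identical at 29 of 30 bases, and each matched that of H2-Q4 at 28 of 30. In the heavy chains the capitals mark a form of the NF-kB site (GGGA, any 4 bases, CC), whose matches on the 2 strands overlap, and a shortened interferon response site (AGTTTC, any 2 bases, TT). In B2m they mark the full interferon-stimulated response element (GAAA, any 2 bases, GAAA) and the NF-kB form. TGACGNNA (Tap1) is a form of the X2 or CRE-like box and TTCNNNGAA (Psmb8) of the STAT site. The motifs were chosen after the sequences had been read and searched on both strands, and the shortened and full interferon sites can overlap on opposite strands. Of 32851 RefSeq promoters of the same length, the NF-kB form was held by 20.7%, the shortened interferon site by 1.72%, the full one by 3.44%, TGACGNNA by 6.61% and TTCNNNGAA by 8.30%. In the 12710 promoters of tested genes the shares, in the same order, were 26.9%, 1.24%, 2.93%, 10.7% and 6.72%. A match is a description of the letters only. The promoters of Tapbp and Psmb10 held none of these 5, and that of Psmb9 held the TGACGNNA match of Tap1 on the opposite strand. That of H2-Q4 also held TGACGNNA outside the stretch shown, at -73 of the start and, on the opposite strand, at 28 after it. The letters CCAAT were also searched, and 37.4% of all these promoters and 38.5% of those of tested genes held them. Those of H2-K1, H2-D1, H2-Q4, B2m, Tap1, Tapbp and Psmb9 did, and those of Psmb8 and Psmb10 did not.

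The values are the authors' normalised reads, each library having been scaled by its own size factor. H2-K1, a classical heavy chain, had 2723, 2895 and 2868 normalised reads in Scr 1 to 3 and 5308, 5197 and 5284 in KO 1 to 3. All KO libraries lay above all Scr libraries with a gap far wider than the spread within a group. Its log2 fold change was 0.90 ± 0.05 (SE; adjusted p = 8.04e-12). H2-D1, the other classical heavy chain, had 5097, 5761 and 5212 in Scr and 10213, 9571 and 9484 in KO cells. The groups were again apart, and the log2 fold change was 0.87 ± 0.06 (SE; adjusted p = 4.17e-11). Leaving out each library in turn moved these between 0.87 and 0.91 for H2-K1 and between 0.83 and 0.92 for H2-D1. Both have paralogs that share stretches of sequence: 9.63% (H2-K1) and 12.8% (H2-D1) of their 50-base words, and 0.957% and 3.59% of their 100-base words, were also found in transcripts of other genes. Their values, multiplied back by the size factor, were mostly not whole numbers (within 0.05 of one in 1 of 6 libraries for H2-K1 and 0 of 6 for H2-D1). How reads shared by paralogs were counted is not given in the sources used here, so the level of each gene is uncertain.

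B2m, the light chain common to all class I molecules, had 4794, 5186 and 5334 normalised reads in Scr and 6882, 6151 and 6315 in KO cells. The groups did not overlap, and the rise was smaller than that of the heavy chains (log2 fold change 0.34 ± 0.06, SE; adjusted p = 4.74e-05). The interval of B2m (0.22 to 0.46, 95%) lay below those of H2-K1 (0.78 to 1.01) and H2-D1 (0.75 to 0.98). Summed over the 18 class I heavy chain genes of the table, the values rose from 10428 ± 506 (SD, n = 3) to 19338 ± 453 (SD, n = 3), 1.85-fold. The sum depends less on how reads are divided among paralogs. The ratio of this sum to B2m was 2.08, 2.11 and 1.94 in Scr and 2.89, 3.10 and 3.03 in KO libraries, with no overlap. H2-K1 and H2-D1 together gave 78.5% ± 0.48 (SD, n = 3) of the sum in Scr and 77.7% ± 0.45 (SD, n = 3) in KO cells. The exact two-sided permutation test gave p = 0.1 for the sum and for its ratio to B2m, the smallest value that 3 against 3 libraries allow, and p = 0.2 for the share (adjusted p = 0.125, 0.125 and 0.2 over 5 such quantities, chosen after the values were seen).

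Tap1, the first chain of the peptide transporter, had 181, 143 and 166 normalised reads in Scr and 465, 451 and 458 in KO cells. The lowest KO library was far above the highest Scr library. The log2 fold change was 1.49 ± 0.13 (SE; adjusted p = 2.29e-09) and stayed between 1.40 and 1.57 when any library was left out. Tap2, the second chain, had 347, 335 and 326 in Scr and 248, 277 and 306 in KO cells, so every KO library lay below every Scr library, KO 3 by little. Its log2 fold change was -0.28 ± 0.12 (SE; adjusted p = 0.0489). This call sat at the threshold and was lost with library size scaling, a pseudocount of 5, no filter, a replicate block or any of 5 of the 6 libraries left out (adjusted p up to 0.181). Tap2 shares 533 exon bases with Gm15821 and 165 with Gm20496, both on the opposite strand. The ratio of Tap1 to Tap2 values was 0.521, 0.427 and 0.509 in Scr libraries and 1.67 ± 0.19 (SD, n = 3) in KO libraries, the highest at 1.88, and thus 3.43-fold higher on average with no overlap (exact two-sided permutation test, p = 0.1, adjusted p = 0.125). The chains form a heterodimer, and per kilobase of transcript Tap2 was the more abundant in Scr and Tap1 in KO cells.

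Tapbp, which bridges the transporter and the empty class I molecule, had 901, 1053 and 1047 normalised reads in Scr and 1327, 1130 and 1234 in KO cells. The groups were apart, with Scr 2 and KO 2 close to each other. The log2 fold change was 0.30 ± 0.08 (SE; adjusted p = 0.00330), and 0.23 to 0.36 when each library was left out. Tapbp shares 904 exon bases with the antisense gene Gm19412 and 149 with Zbtb22 on its own strand, and its values were whole in 0 of 6 libraries. Whether the counting used strand is not given in the sources used here.

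**Figure D2:**
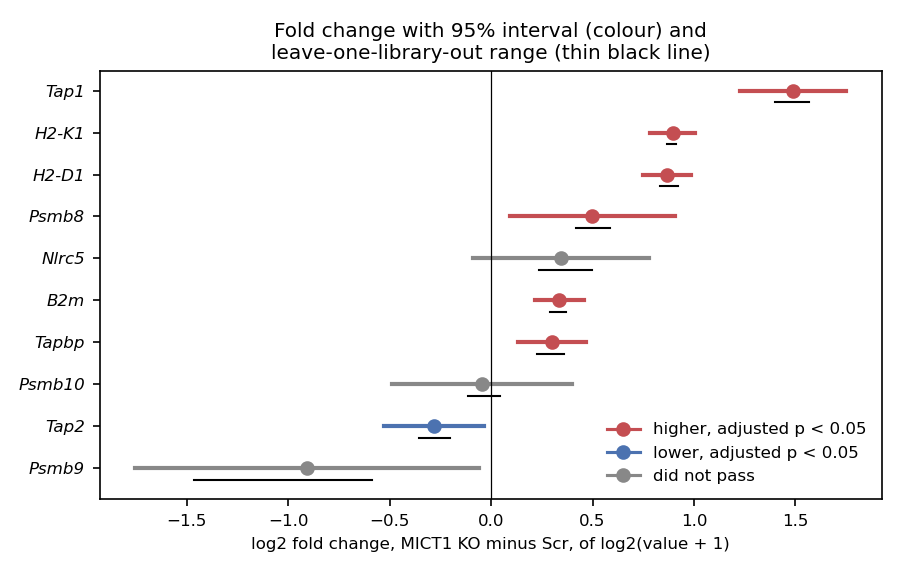
Log2 fold change of each gene, MICT1 KO minus Scr, with its unadjusted 95% interval (coloured line) and the range when each library is left out (thin black line). Tap1 leads at 1.49, H2-K1 and H2-D1 lie at 0.90 and 0.87, and the interval of Psmb9, whose adjusted p was 0.0635, runs from -1.76 to -0.06.

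The immunoproteasome subunits did not share a direction. Psmb8, which takes the place of Psmb5, had 94.0, 76.9 and 82.4 normalised reads in Scr and 106, 120 and 134 in KO cells. The groups did not overlap, and the log2 fold change was 0.50 ± 0.20 (SE; adjusted p = 0.0347). Without Scr 2, Scr 3, KO 2 or KO 3 it no longer passed (0.42 to 0.49, adjusted p up to 0.127). Psmb8 shares 498 exon bases with the antisense gene Gm20496. Psmb10, which takes the place of Psmb7, had 78.1, 84.4 and 80.4 in Scr and 86.8, 80.1 and 69.4 in KO cells. The groups overlapped, the log2 fold change was -0.04 (95% interval -0.49 to 0.40, adjusted p = 0.873), and its sign turned to 0.04 without KO 3.

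Psmb9, which takes the place of Psmb6, split the KO libraries. It had 42.5, 40.8 and 42.7 normalised reads in Scr 1 to 3 and 48.6, 13.7 and 15.5 in KO 1 to 3. KO 1 lay above all Scr libraries and KO 2 and KO 3 below them. These values rest on 43, 44 and 42 reads in Scr and 51, 13 and 15 reads in KO cells. Exact 95% Poisson intervals, which cover counting error only, ran from 38.0 to 67.1 reads for KO 1, from 6.92 to 22.2 for KO 2 and from 8.40 to 24.7 for KO 3, so KO 1 lay apart beyond counting error. The log2 fold change over all libraries was -0.91 ± 0.41 (SE; adjusted p = 0.0635), and with the replicate block the adjusted p was 0.0482. Without KO 1 it was -1.46 (adjusted p = 0.00313), without KO 2 -0.59 (adjusted p = 0.248) and without KO 3 -0.67 (adjusted p = 0.196). The gap between KO 1 and the mean of KO 2 and KO 3 was 1.67 on the log2 scale, and 75 of 12507 tested genes (0.600%) had one as large in either direction. Among the 2508 genes with a mean value of 10 to 100, 59 (2.35%) did. The class Ib gene H2-T9, noticed after its values were seen, had 53.3 in KO 1 beside 11.7 and 18.4 in KO 2 and KO 3, and 19.0, 25.4 and 24.7 in Scr. The values of H2-T9, multiplied back by the size factor, were whole in 0 of 6 libraries, and its symbol had no GENCODE match. How reads shared with paralogs were counted is not given, so its values are uncertain.

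Psmb9 and Tap1 are transcribed away from each other, with 225 bases between their RefSeq starts (34187330 and 34187556 on chromosome 17), and the GENCODE exons of the pair share 212 bases on opposite strands. Their values did not move together. Tap1 rose in all 3 KO libraries, and Psmb9 was lower in 2 of them. The ratio of Tap1 to Psmb9 was 4.26, 3.50 and 3.88 in Scr and 9.57, 32.9 and 29.5 in KO libraries (exact two-sided permutation test, p = 0.1, adjusted p = 0.125). Even in KO 1, where Psmb9 was at the Scr level or above, this ratio exceeded every Scr library.

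Nlrc5 had 87.0, 73.2 and 89.5 normalised reads in Scr and 85.8, 112 and 123 in KO cells. KO 1 lay among the Scr libraries and the other two above them. The log2 fold change was 0.35 ± 0.21 (SE; 95% interval -0.09 to 0.78; adjusted p = 0.165), and no library left out made it pass (adjusted p 0.0675 to 0.424). Over the 10 genes, the values did not overlap between the groups in 6 genes that were higher and 1 that was lower. Among all genes tested 62% did not overlap, 30.9% being higher and 31.2% lower.

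Levels between genes were compared as RPKM, reads per kilobase of the principal GENCODE transcript scaled to the library total. In Scr cells the order was B2m (363 ± 16.2, SD, n = 3), H2-D1 (156), H2-K1 (107), Tapbp (21.1), Tap2 (5.96), Psmb10 (3.77), Tap1 (3.38), Psmb8 (3.17), Psmb9 (1.90) and Nlrc5 (0.672). The neighbours Psmb10 and Tap1, and Tap1 and Psmb8, overlapped between libraries, and the other neighbours did not. The heavy and light chains stood well above the transporter, the immunoproteasome and Nlrc5. In KO cells B2m was at 459 RPKM, H2-D1 at 284 and H2-K1 at 199, and Tap1, at 9.51, moved from rank 7 to rank 5, above Tap2 at 4.93.

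The constitutive catalytic subunits were far more abundant than the immuno subunits in both groups. In Scr cells Psmb5, Psmb6 and Psmb7 were at 68.2, 117 and 96.2 RPKM, and Psmb8, Psmb9 and Psmb10 at 3.17, 1.90 and 3.77. In KO cells Psmb5 was at 65.9, Psmb6 at 116 and Psmb7, which fell, at 71.4 RPKM. The log2 ratio of each immuno subunit to the one it replaces, on values plus 1 per kilobase, moved by 0.55 for Psmb8 over Psmb5 and by 0.39 for Psmb10 over Psmb7, without overlap between the groups. For Psmb9 over Psmb6 the difference was -0.88, with KO 1 above and KO 2 and KO 3 below the Scr libraries. By exact two-sided permutation tests over 3 against 3 libraries p was 0.1, 0.1 and 0.4 (adjusted p = 0.15, 0.15 and 0.4 over the 3 ratios), and 0.1 is the smallest this design allows. The difference of Psmb10 over Psmb7 came with a fall of Psmb7 (log2 fold change -0.44) beside -0.04 for Psmb10 itself.

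**Figure D3:**
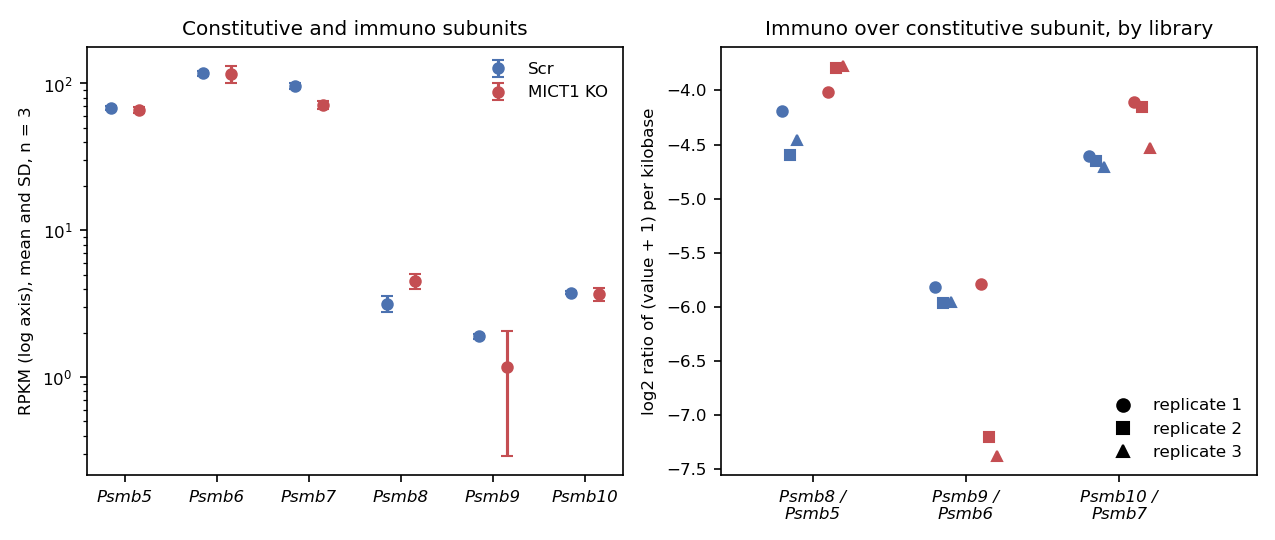
Left, RPKM of the constitutive (Psmb5, Psmb6, Psmb7) and immuno (Psmb8, Psmb9, Psmb10) subunits on a log axis (mean and SD, n = 3). Right, log2 ratio of each immuno subunit to the one it replaces in every library, where Psmb9 over Psmb6 is split between KO 1 at -5.79 and KO 2 and KO 3 at -7.21 and -7.37.

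Of 27 other class I and class I-like genes on the list 20 were in the table and 19 tested, of which 10 were higher, 1 was lower and 8 did not pass (median log2 fold change 0.59). The 11 called in either direction were 57.9% of the 19, beside 56.9% of all genes tested, and the 10 higher were 52.6%, beside 28.5%. Without KO 3 the number called higher was 6. H2-Q4, the most abundant of them, had 883, 940 and 875 normalised reads in Scr and 2348, 2326 and 2399 in KO cells (log2 fold change 1.39 ± 0.06, SE; adjusted p = 1.16e-13). Its values in the 2 groups were far apart, and its rise was larger than those of H2-K1 and H2-D1, as 95% intervals show by not overlapping. H2-Bl (2.67) and H2-M9 (1.88) had the largest log2 fold changes of the list but few reads, with Scr values from 0.927 to 4.95 and from 1.98 to 7.12. The gene called lower was Cd1d1, which presents lipids to NKT cells, at 65.3, 67.7 and 88.5 in Scr and 24.8, 16.9 and 25.9 in KO cells (log2 fold change -1.68, adjusted p = 7.41e-05). H2-T23, which encodes Qa-1, had 282, 239 and 277 in Scr and 210, 204 and 259 in KO cells, with overlap and an adjusted p of 0.131. For H2-Q4, 21.8% of its 50-base and 2.16% of its 100-base words also occur in other genes, and its values were whole in 0 of 6 libraries.

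Of the 9 genes of peptide trimming and loading, 4 were higher, 2 lower and 3 did not pass, with a median of 0.14. Calls in either direction made up 66.7% of the 9, beside 56.9% of all genes tested, and higher calls 44.4%, beside 28.5%. Without KO 2 the number called lower was 1. Calreticulin (Calr), the chaperone that binds the class I heavy chain, had 9043, 9594 and 7999 normalised reads in Scr and 17488, 16688 and 15593 in KO cells (log2 fold change 0.90 ± 0.06, SE; adjusted p = 1.24e-10). Pdia3, the oxidoreductase of the loading complex, rose by 0.63 on the log2 scale and Erap1, the aminopeptidase that trims peptides in the endoplasmic reticulum, by 0.55. Lnpep, an aminopeptidase of endosomes, fell by 0.34 on the log2 scale. Calr and Pdia3 also serve glycoproteins other than class I. Of the 12 constitutive catalytic subunits, proteasome activators and assembly factors, 0 were higher and 4 lower by limma-trend, with a median of -0.11. The lower ones were 33.3% of the 12, and among all genes tested 28.5% were higher and 28.3% lower. The number higher was also 0 at an unadjusted p under 0.05 and by limma-voom, and 1 without KO 3. The 4 were Psmb7 (-0.44), the assembly chaperone Psmg2 (-0.28) and the activators Psme4 (-0.18) and Psme3 (-0.16).

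**Figure D4:**
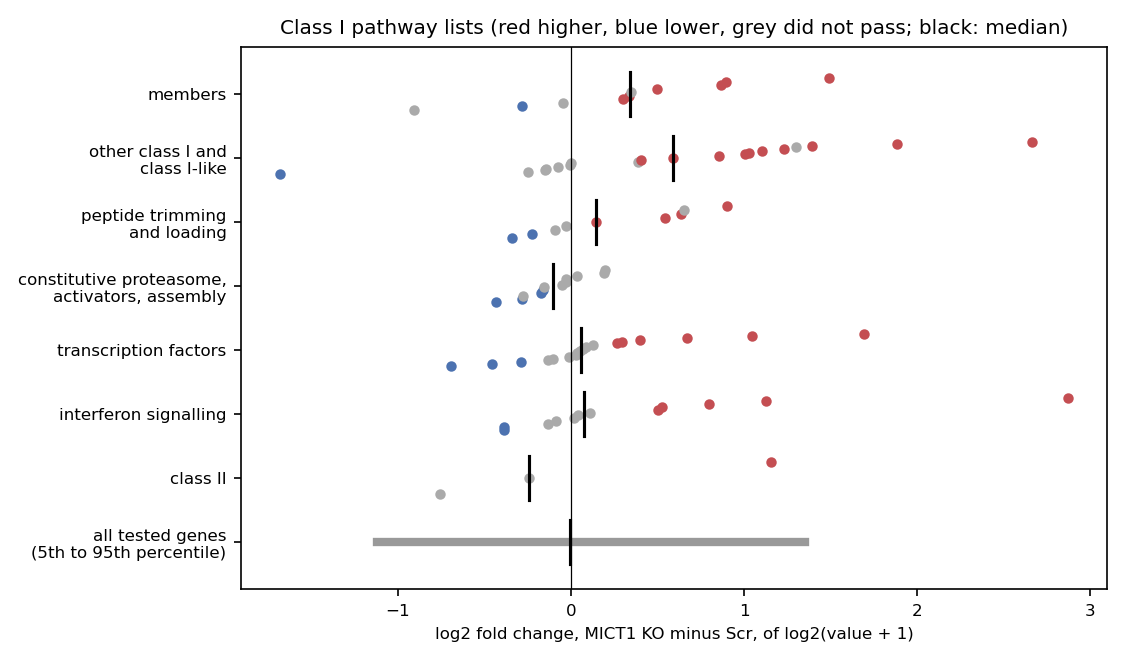
Log2 fold changes, MICT1 KO minus Scr, of the tested genes of each list, 1 point a gene (red, higher; blue, lower; grey, did not pass), with the list median as a black bar and the 5th to 95th percentile of all tested genes (-1.12 to 1.35) at the bottom. The median is 0.59 for the other class I genes and -0.11 for the constitutive proteasome list.

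Among 18 of 20 listed transcription factors of class I genes, 6 were higher, 3 lower and 9 did not pass, with a median of 0.06. Calls in either direction were 9 of the 18, beside 56.9% of all genes tested, and higher calls 33.3%, beside 28.5%. Irf7, an interferon-induced regulator, had 39.6, 50.1 and 38.7 normalised reads in Scr and 157, 114 and 151 in KO cells (log2 fold change 1.69 ± 0.23, SE; adjusted p = 1.97e-06). Stat2 (1.04) and Irf9 (0.67), which act together in type I interferon signalling, were higher. Stat3 fell by 0.69 on the log2 scale, and Nfkb1, the p105/p50 subunit of NF-kB and the most abundant factor of the list in KO cells, rose by 0.40. Irf1, known to activate Psmb9 and Tap1, had 354, 333 and 315 in Scr and 291, 280 and 369 in KO cells, with overlap (adjusted p = 0.505).

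None of the 5 interferon ligands on the list was analysed here. Of the 12 receptors and signalling genes in the table, 5 were higher, 2 lower and 5 did not pass, with a median of 0.08. Called genes were 58.3% of the 12, beside 56.9% of all genes tested, and higher ones 41.7%, beside 28.5%. Usp18, a negative regulator of type I interferon signalling, had 18.8, 23.2 and 17.3 normalised reads in Scr and 154, 161 and 135 in KO cells (log2 fold change 2.87 ± 0.25, SE; adjusted p = 4.94e-09). No other gene on the lists of the class I pathway had a larger log2 fold change. Socs1, an inhibitor of JAK kinases, rose by 1.13 on the log2 scale, and the receptor chains Ifnar1 and Ifnar2 rose by 0.80 and 0.52. The kinase Jak2 and Socs3, an inhibitor of cytokine signalling, each fell by 0.39 on the log2 scale. Jak1, the most abundant of the list, had a log2 fold change of 0.04 (adjusted p = 0.560). Of 11 class II genes 4 were in the table and 3 tested, and 1 of them (33.3%), the invariant chain Cd74, was higher (1.16). H2-DMa, the most abundant of the tested, was at -0.25 (adjusted p = 0.369).

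Estimated reads per library ran from 15445800 to 17925632. The 45S pre-ribosomal RNA gave 1.92% of the summed values in Scr 2 and 0.507% to 0.831% in the other libraries. Without Scr 2 the call of Psmb8 was lost and 5 of the 10 genes were called higher. The same held without Scr 3, KO 2 or KO 3, so it was not particular to Scr 2. The level of MICT1 itself was not analysed here. Brown adipocyte markers moved strongly with the groups. Of 16, 11 were in the table and 10 tested, all of them lower in KO cells, and their summed level was 7356 to 8918 CPM in Scr and 919 to 1315 CPM in KO libraries, with Ucp1 at 20.8, 24.1 and 30.5 normalised reads in Scr and 1.91, 1.05 and 9.33 in KO cells. Of 10 preadipocyte and fibroblast markers, 8 were in the table and 6 tested, 3 higher and 2 lower. Among all genes tested 28.5% were called higher and 28.3% lower. The summed level of the preadipocyte and fibroblast markers was 2227 to 2593 CPM in Scr and 3062 to 3257 CPM in KO libraries. That sum was led by Col1a1 (mean 1097 CPM in Scr and 1874 CPM in KO cells), while Dlk1 fell by 3.47 on the log2 scale and Col3a1 did not pass. In bulk RNA, fewer cells of a type and less RNA per cell cannot be told apart.

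Immune and endothelial cells carry more class I than most cells, so their markers were read beside these results. Of 16 myeloid markers 4 were in the table, and their summed level was 16.6 to 23.1 CPM in Scr and 31.8 to 39.2 CPM in KO libraries, a rise carried by Cd14 (log2 fold change 1.24). Csf1r, Cd68 and Mrc1 did not pass, and Ptprc, Adgre1 and Lyz2 were among the 12 not analysed here. Of 11 lymphocyte markers 0 were in the table. Of 7 endothelial markers 1 was, Cdh5, at 0.369 to 0.725 CPM in Scr and 1.59 to 2.03 CPM in KO libraries. The part of these markers, and of the adipocyte and fibroblast markers, in the values of the class I genes was not tested.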

How the data were processed

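RNA-seq of 3 Scr and 3 MICT1 KO libraries was used. Per the methods, strand-specific total RNA libraries were sequenced paired-end, and reads were aligned to NCBI38/mm10 in Partek. The submitters' notes also name STAR. The counting model and annotation are not given in the sources used here, and the labels describe library preparation differently. The authors deposited a normalised signal per gene, which the values show to be reads scaled by a median-ratio factor, for genes with a value above 0 in all 6 libraries. With the values multiplied back, 88.1% to 88.7% were within 0.05 of whole numbers. These are not counts, so limma-trend (limma 3.58.1, R 4.3.3) was fitted on log2(value + 1) over the 12507 genes that reached 10 in 3 or more libraries, with Benjamini-Hochberg adjustment and a threshold of 0.05. Fold changes on this scale understate those of low genes. Depth, 15445800 to 17925632 reads, gave 13 to 51 reads per library for Psmb9.

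Genes and lists were chosen with earlier results of these data known. All 10 genes were named, and from each list the genes that passed, or the 4 with the largest changes, and the most abundant. Jak2 and Socs3, outside the 4 largest changes of the interferon list, were named as the genes called lower there. H2-T23, H2-T9 and Irf1 were named after their values were seen. Some single genes are not reported here. Lengths and overlaps came from GENCODE vM21, where 12930 symbols (97.3%) matched, and promoters from RefSeq. Ratios and sums were compared by exact permutation tests. The fit was tested on simulated data. The alternatives were library size or TMM scaling, pseudocounts of 0.5 and 5, no filter, a 4 CPM filter, limma-voom, a replicate block and each library left out.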

Additional observations from a re-analysis of the deposited data

How the results depend on the processing

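Over 14 alternatives, H2-K1, H2-D1, B2m, Tap1 and Tapbp stayed higher and past the threshold in each. Tap2 lost its call with library size scaling (-0.28, adjusted p = 0.0568), a pseudocount of 5 (-0.28, adjusted p = 0.0508), no filter (-0.28, adjusted p = 0.0543) and the replicate block (-0.28, adjusted p = 0.0591). The number of the 10 genes called lower was 0 under the first 3. With each library left out it was 0 to 1, the number called higher was 5 to 6, and Tap2 ran from -0.36 to -0.21, Psmb8 from 0.42 to 0.58, Psmb9 from -1.46 to -0.59 and Psmb10 from -0.12 to 0.042, the last reversed without KO 3. Psmb9 passed without KO 1 and under the replicate block (-0.91, adjusted p = 0.0482), and was not tested under the 4 CPM filter. Without KO 2 the trimming and loading genes called lower were 1. Without KO 3 the other class I genes called higher were 6 and the constitutive proteasome genes called higher 1. Fewer libraries and fewer tested genes enter each such fit, and the cause of the other losses was not tested.

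Replicate numbers pair nothing that the labels name. Same-numbered libraries deviated from their group means with correlations of -0.02, -0.02 and 0.06, so the numbers were not taken as pairs. Across all genes the block left 7055 genes called beside 7113.

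With 3 libraries a group, an exact test of a single value cannot go below 0.1. Psmb8, Psmb9, Psmb10 and Nlrc5, with 13 to 129 reads per library, have the widest intervals, and heavy chain values depend on how reads of paralogs were divided.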
